A study of Mus musculus with 10 samples.

Results

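The genes described here are the D-type cyclins, the kinases they activate and the proteins that hold those kinases in check. They were chosen by name as regulators of the G1 phase: Ccnd1, Ccnd2, Ccnd3, Cdk4, Cdk6, Cdkn2a, Cdkn2b, Cdkn2c, Cdkn1b and Rb1. All 10 were present among the 56750 features of the count table, and all 10 passed the filter on low counts that left 24743 features for testing.

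Bulk RNA-seq was compared between sarcomas of 2 mouse models. The dFLEx tumors (170019, 170024 and 170025, genotype dFLEx CDS +/-) carried a CIC::DUX4 construct at Rosa26, read from a CAG promoter once both Cre and FLP had acted. Plasmids for both recombinases were electroporated into hind limb muscle, which does not select a cell type. The KP tumors (3800 and 3802, genotype KRASloxP-STOP-loxP-G12D with p53fl/fl) served as comparison, and the 2 groups thus differed in every engineered allele, with no normal tissue used here. RNA of each tumor had been split into 2 duplicates, but only 1 library of 3802 was used here, which gave 6 dFLEx and 3 KP libraries. Library totals ran from 20503474 to 46302223 counts. CIC_DUX4 had 4238, 11623 and 33600 counts in 170019, 170024 and 170025, against 0 in 3800 and 6 in 3802. The duplicates of a tumor were summed, so the comparison was of 3 dFLEx tumors with 2 KP tumors.

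A cell passes from G1 into S phase once the retinoblastoma protein, made from Rb1, has been phosphorylated and has let go of E2F transcription factors. That phosphorylation is begun by Cdk4 or Cdk6 bound to a D-type cyclin, and mitogen signals act on it largely through the level of those cyclins. The Ink4 proteins (among the 10 genes, p15 from Cdkn2b, p16 from Cdkn2a and p18 from Cdkn2c) bind Cdk4 and Cdk6 directly, whereas p27, from Cdkn1b, binds cyclin and kinase complexes. Cdkn2a also encodes Arf, which stabilises p53 through Mdm2, and gene-level counts do not separate the 2 products. The D cyclins can partly replace each other, and Cdk4 and Cdk6 likewise, so the share of each paralog in its family is given beside its level.

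Between the tumor types, 5 of the 10 genes did not overlap. Ccnd2 and Cdk4 were above both KP tumors in each dFLEx tumor, as was true of 13.7% of all tested features, and Cdk6, Cdkn2a and Cdkn2b were below both in each, as was true of 11.7%. The mean of Ccnd2 was 11.5-fold that of KP (fitted), while Cdk6, Cdkn2b and Cdkn2a were 15-fold, 9.15-fold and 7.17-fold greater in KP. With edgeR's quasi-likelihood test and Benjamini-Hochberg adjustment over all tested genes, 0 of the 10 passed an adjusted p of 0.05, against 45 of 24743 features (0.182%). At an unadjusted p under 0.05, 4 of the 10 passed (1 higher, Ccnd2, and 3 lower, Cdk6, Cdkn2a and Cdkn2b), against 10.6% of all features. DESeq2 on the same tumor sums called 1396 of 44379 features (3.15%), and those 4 were among them. The median log2 fold change, dFLEx over KP, was 0.44 over the 10 genes and -0.18 over all tested features. The 45 calls were 25 higher and 20 lower, a split of 14 and 20 under library totals and of 17 and 33 under upper quartile scaling.

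**Figure D1:**
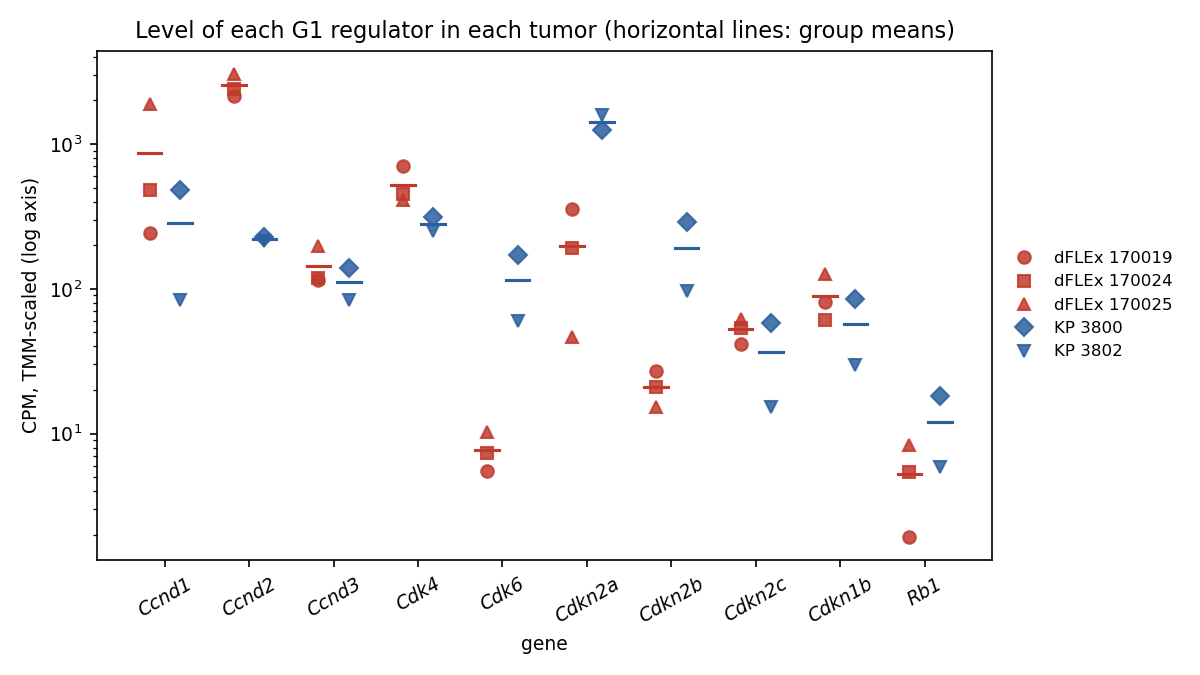
Level of each of the 10 genes in each tumor, in TMM-scaled CPM on a log axis, with 1 symbol per tumor and a horizontal line at each group mean. The dFLEx symbols of Ccnd2 (2153 to 3051) lie far above those of KP, and those of Cdk6 (5.55 to 10.2), Cdkn2a and Cdkn2b lie below them.

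Levels are given as CPM, the summed counts of a tumor divided by its total and scaled by the trimmed mean of M values (TMM), and compare 1 gene across tumors. Ccnd2, the cyclin D2 gene (ENSMUSG00000000184, chr6:127102125-127129156, minus strand, coordinates of GRCm39 for all 10 genes), had 2153, 2416 and 3051 CPM in 170019, 170024 and 170025, and 227 and 213 CPM in 3800 and 3802. The lowest dFLEx tumor stood well above the higher KP tumor, and the spread within each group was small beside the gap between them. In edgeR its log2 fold change was 3.53 (SE 0.58, adjusted p = 0.0784), and it lay between 3.36 and 3.74 whichever tumor was left out. With tumors as units the adjusted p ran from 9.4e-06 (DESeq2 on tumor sums) to 0.330 (edgeR without 170024). It was 9.2e-62 in DESeq2 with libraries as independent samples. Such p-values are too small, as duplicates share 1 RNA. Ccnd2 is one of the genes that the study itself counts among CIC::DUX4 targets.

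Ccnd1, the cyclin D1 gene (ENSMUSG00000070348, chr7:144483668-144493662, minus strand), was the least even of the 3 D cyclins, with 244, 483 and 1882 CPM in the dFLEx tumors and 484 and 84.1 CPM in 3800 and 3802. Tumor 170025 alone exceeded both KP tumors, and the groups overlapped. The log2 fold change of 1.61 (SE 1.07) did not pass (adjusted p = 0.758), and it moved from 0.36 without 170025 to 3.55 without 3800, with 0.86 without 3802. Ccnd1 differed 7.71-fold between the highest and the lowest dFLEx tumor, against 1.42-fold for Ccnd2. Of the exonic length of Ccnd1, 23.4% also belongs to LTO1 on the other strand, and reads falling there were not counted.

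Ccnd3, the cyclin D3 gene (ENSMUSG00000034165, chr17:47815976-47910616, plus strand), had similar levels in both groups, with 114, 118 and 199 CPM in dFLEx and 139 and 83.8 CPM in KP. The groups overlapped, and Ccnd3 did not pass in edgeR (log2 fold change 0.37, SE 0.58, adjusted p = 0.923). A processed pseudogene, Ccnd3-ps, is 96.6% identical over 417 bases, and reads that aligned equally well to both were not counted.

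Paralog shares were computed from counts per kilobase of exon, so that genes of different length could be set beside each other. These lengths include bases shared with other features, where reads were not counted. Such bases made up 23.4% of Ccnd1, 7.91% of Ccnd2 and 4.11% of Ccnd3. For Cdk4, Cdk6 and Cdkn2c the figures were 19.7%, 2.63% and 12.7%, and the shares were not corrected for this. Ccnd2 made up 77.9%, 68.9% and 43.4% of the D cyclin total in 170019, 170024 and 170025, and 16.9% and 45.3% in 3800 and 3802. It was the leading D cyclin in 170019, 170024 and 3802, and Ccnd1 was the leading one in 170025 and 3800. The group means were 63.4% ± 17.9 (SD, n = 3) and 31.1% ± 20.1 (SD, n = 2), and the groups overlapped (difference 32.3 points, exact two-sided permutation test, p = 0.4). Without 3800 the difference was 18.1 points, and without 3802 it was 46.5. A split of 3 against 2 tumors cannot give a p below 0.2 in this test.

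Ccnd1 took 17.7%, 27.5% and 53.5% of the total in the dFLEx tumors and 72.0% and 35.7% in 3800 and 3802, again with overlap. Its difference of -20.9 points was -2.76 without 3800, -39.1 without 3802 and -13.3 without 170019. Ccnd3 took the smallest share in all 5 tumors. Its share was 4.44%, 3.61% and 3.03% in dFLEx, below the 11.1% and 19.1% of KP (difference -11.4 points, or -7.41 without 3802, exact permutation p = 0.2, the smallest possible). Duplicates of a tumor differed by at most 7.73 points, for Ccnd2 in 170019, so most of the unevenness lay between tumors and not between libraries.

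The shares and the levels thus ordered the tumors differently for Ccnd2. Its level did not overlap between groups, whereas its share did: 170025, with the largest Ccnd1 level, had the smallest Ccnd2 share of dFLEx, and 3802, with the smallest Ccnd1 level, had the larger share of KP. Set against Ccnd3 alone, the ratio of Ccnd2 per kilobase was 17.6, 19.1 and 14.3 in the dFLEx tumors and 1.52 and 2.37 in KP, without overlap (exact permutation p = 0.2). The ratio of Ccnd1 to Ccnd3 was 3.98, 7.61 and 17.7 in dFLEx and 6.48 and 1.87 in KP, and overlapped.

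**Figure D2:**
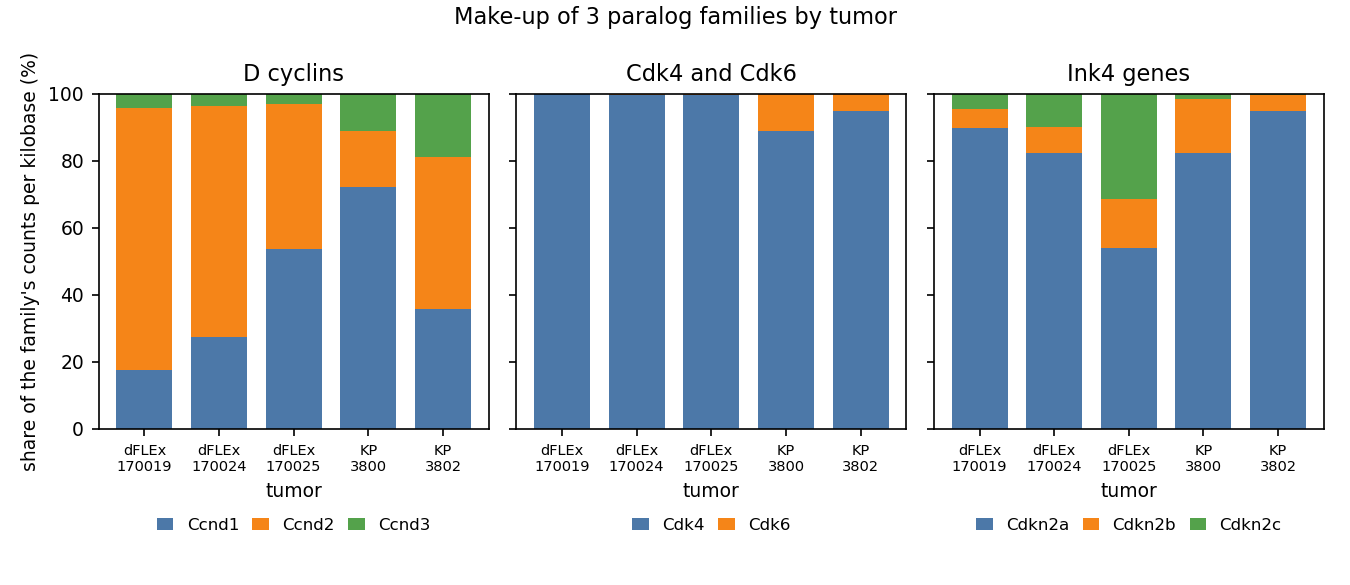
Share of each paralog in its family's counts per kilobase of exon (percent), 1 bar per tumor, for the D cyclins, for Cdk4 with Cdk6, and for the Ink4 genes Cdkn2a, Cdkn2b and Cdkn2c. The fourth Ink4 gene, Cdkn2d, is left out. Ccnd2 runs from 43.4% to 77.9% in dFLEx, Cdk6 is barely visible in dFLEx and reaches 11.3% in 3800, and Cdkn2c is widest in 170025.

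Summed over the 3 paralogs, D cyclin levels were 294, 373 and 746 CPM per kilobase in 170019, 170024 and 170025, and 143 and 50.1 in 3800 and 3802. All 3 dFLEx sums were above both KP sums, with means of 471 ± 242 (SD, n = 3) and 96.4 ± 65.5 (SD, n = 2), a 4.89-fold ratio (exact permutation p = 0.2, the smallest possible). The ratio was 9.41 without 3800 and 3.30 without 3802.

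Cdk4 and Cdk6, the kinases these cyclins activate, stood on opposite sides. Cdk4 (ENSMUSG00000006728, chr10:126899403-126903789, plus strand) had 706, 455 and 412 CPM in the dFLEx tumors and 312 and 252 CPM in KP. The groups did not overlap, but the gap between 412 and 312 was small, and the log2 fold change of 0.90 (SE 0.55) did not pass (adjusted p = 0.716 in edgeR). Reads over 19.7% of the exonic length of Cdk4, shared with Tspan31 on the other strand, were not counted.

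Cdk6 (ENSMUSG00000040274, chr5:3391485-3581008, plus strand) had 5.55, 7.28 and 10.2 CPM in the dFLEx tumors and 170 and 60.0 CPM in 3800 and 3802. Even the lower KP tumor was far above the highest dFLEx tumor, although the KP tumors themselves differed 2.84-fold. Its log2 fold change was -3.91 (SE 0.68, adjusted p = 0.0877). Left out 1 tumor at a time it ran from -4.45 without 3802 to -2.80 without 3800. With tumors as units the adjusted p ran from 7.3e-06 (DESeq2 on tumor sums) to 0.299 (edgeR without 170024). The 3.8e-33 of DESeq2 with libraries as independent samples is too small, as for Ccnd2. Several pseudogene copies, of which Gm16505 is 96.1% identical over 233 bases, could draw reads from Cdk6.

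Cdk4 accounted for 99.8%, 99.6% and 99.4% of the Cdk4 and Cdk6 total per kilobase in dFLEx, and for 88.7% and 94.8% in KP. The 2 groups did not overlap (difference 7.87 points, or 4.87 without 3800, exact permutation p = 0.2). Per kilobase, Cdk4 was 548, 269 and 174 times Cdk6 in 170019, 170024 and 170025, and 7.89 and 18.1 times in 3800 and 3802. Cdk4 was thus the more abundant of the pair in every tumor, and the summed level of both was 218, 140 and 128 CPM per kilobase in dFLEx and 108 and 81.7 in KP.

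The letters before the start sites of Cdk4, Cdk6 and Cdkn2b are shown because these genes did not overlap between the tumor types, in opposite directions, and each has a single entry in the RefSeq promoter table. Each run is the 250 bases before the annotated start, 5′ to 3′ on the gene's strand, in build GRCm38.p6: chr10:127063285-127063534 (plus strand), chr5:3343643-3343892 (plus strand) and chr4:89311033-89311282 (minus strand). Capitals mark GC boxes, GGGCGG on either strand.
Cdk4: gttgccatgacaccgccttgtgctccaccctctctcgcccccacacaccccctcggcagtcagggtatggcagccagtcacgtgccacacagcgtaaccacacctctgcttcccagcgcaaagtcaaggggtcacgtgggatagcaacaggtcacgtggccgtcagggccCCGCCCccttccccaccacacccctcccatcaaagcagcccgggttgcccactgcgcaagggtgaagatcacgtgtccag
Cdk6: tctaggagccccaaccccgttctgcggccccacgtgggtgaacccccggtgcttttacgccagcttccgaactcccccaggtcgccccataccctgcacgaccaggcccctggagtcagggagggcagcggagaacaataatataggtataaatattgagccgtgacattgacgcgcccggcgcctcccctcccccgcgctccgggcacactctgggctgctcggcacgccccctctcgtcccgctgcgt
Cdkn2b: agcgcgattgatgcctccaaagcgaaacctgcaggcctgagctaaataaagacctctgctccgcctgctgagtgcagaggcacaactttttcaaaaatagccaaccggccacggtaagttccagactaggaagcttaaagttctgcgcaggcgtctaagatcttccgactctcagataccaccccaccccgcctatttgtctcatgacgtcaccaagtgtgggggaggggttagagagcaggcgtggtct

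Of these 3 windows only that of Cdk4 held a GC box. Over all 10 windows available, 6 held at least 1, among them a window of Cdkn2a, which was lower in dFLEx, with 2. Of the 32851 promoters in the table, 32.7% held at least 1. E2F motifs were searched as TTTCGCGC and TTTGGCGC and CIC motifs as TGAATGAA and TGAATGGA, on both strands. None of these 4 was found in the 10 windows available for Ccnd3, Cdk4, Cdk6, Cdkn2a, Cdkn2b, Cdkn2c and Cdkn1b, and 0.655% and 2.07% of all promoters held an E2F and a CIC match. Ccnd1, Ccnd2 and Rb1 had no entry. These counts cover only the 4 spellings named, in a short window. Other forms of E2F and CIC sites were not searched, so their absence is not shown.

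Of the 4 inhibitor genes among the 10, the Ink4 genes Cdkn2a and Cdkn2b were those whose tumors did not overlap. Cdkn2a (ENSMUSG00000044303, chr4:89192708-89212890, minus strand) had 357, 192 and 46.6 CPM in 170019, 170024 and 170025, and 1256 and 1589 CPM in 3800 and 3802. All 3 dFLEx tumors were below both KP tumors, and 170025, the tumor with the largest Ccnd1 level, had the smallest Cdkn2a level. In edgeR the log2 fold change was -2.84 (SE 0.81, adjusted p = 0.228), and it ran from -3.62 without 170019 to -2.39 without 170025. Cdkn2a has a short, GC-rich transcript (60.2% GC), and with a correction of each tumor for GC content and transcript length, an alternative chosen after the data were seen, it was -3.77 (adjusted p = 0.0438). With tumors as units the adjusted p of Cdkn2a ran from 0.0160 (DESeq2 on tumor sums) to 0.739 (edgeR without 170024). The 0.000844 of DESeq2 with libraries as independent samples is too small.

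Cdkn2b, its neighbour on chromosome 4 (ENSMUSG00000073802, chr4:89224536-89229276, minus strand), had 27, 20.8 and 15.1 CPM in dFLEx and 288 and 96.0 CPM in KP. The tumor types did not overlap, and 3800 had 3.00 times the level of 3802. The log2 fold change was -3.19 (SE 0.66, adjusted p = 0.120 in edgeR). It was -2.03 without 3800 and -3.76 without 3802. With tumors as units the adjusted p ran from 0.000641 (DESeq2 on tumor sums) to 0.482 (edgeR without 170024). The 1.83e-14 of DESeq2 with libraries as independent samples is too small.

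Cdkn2c, on chromosome 4 as well (ENSMUSG00000028551, chr4:109518073-109524386, minus strand), had 41.6, 53.9 and 62.3 CPM in dFLEx and 58.1 and 15.3 CPM in KP. Tumor 3800 lay inside the dFLEx range, and only 3802 stood low. The log2 fold change was 0.52 (SE 0.70, adjusted p = 0.908), and its sign turned to -0.13 when 3802 was left out.

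The sums and shares given here cover Cdkn2a, Cdkn2b and Cdkn2c, and leave out Cdkn2d, the fourth Ink4 gene. Cdkn2d had 104, 67.9 and 54.2 CPM in dFLEx and 29.8 and 23.7 CPM in KP, higher in dFLEx. The 3 genes summed to 339, 199 and 73.9 CPM per kilobase in the dFLEx tumors and to 1301 and 1430 in KP. The KP mean was 6.69 times the dFLEx mean, and the groups did not overlap (exact permutation p = 0.2, the smallest possible). Cdkn2a was the most abundant of the 3 per kilobase in every tumor. It made up 89.7%, 82.4% and 53.8% of this sum in dFLEx and 82.4% and 94.8% in KP (difference -13.3 points, exact permutation p = 0.4). That difference was -20.5 points without 170019, -2.54 without 170025 and -7.08 without 3802. Cdkn2c took 4.57%, 10.1% and 31.4% in dFLEx and 1.66% and 0.399% in KP, without overlap (difference 14.3 points, or 6.30 without 170025, exact permutation p = 0.2 over all 5 tumors). Since the level of Cdkn2c overlapped, its larger share in dFLEx went with smaller counts of the other two. The share of Cdkn2b overlapped, from 5.73% to 14.7% in dFLEx and from 4.83% to 15.9% in KP (exact permutation p = 1).

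Cdkn1b (ENSMUSG00000003031, chr6:134897364-134902476, plus strand) had 81.2, 60.4 and 127 CPM in dFLEx and 85.0 and 29.7 CPM in KP. Again 3800 lay inside the dFLEx range and 3802 below it, and the log2 fold change was 0.64 (SE 0.68, adjusted p = 0.882). It was 0.09 without 3802 and was 1.76 without 3800. Cdkn1b and Cdkn2c are both on the list of CIC::DUX4 target genes that the study tabulated.

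Rb1, the gene of their substrate (ENSMUSG00000022105, chr14:73421113-73563262, minus strand), had few reads for its length, with 1.94, 5.46 and 8.35 CPM in dFLEx and 18.3 and 5.85 CPM in KP. The groups overlapped, since 3802 fell between 170024 and 170025. The log2 fold change was -1.20 (SE 0.81, adjusted p = 0.765), and it was 0.02 without 3800. Rb1 and Cdk6 were the 2 lowest of the 10 genes per kilobase in all 5 tumors. Its exons share 14.9% of their length with Rcbtb2 and Lpar6, where reads were not counted.

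**Figure D3:**
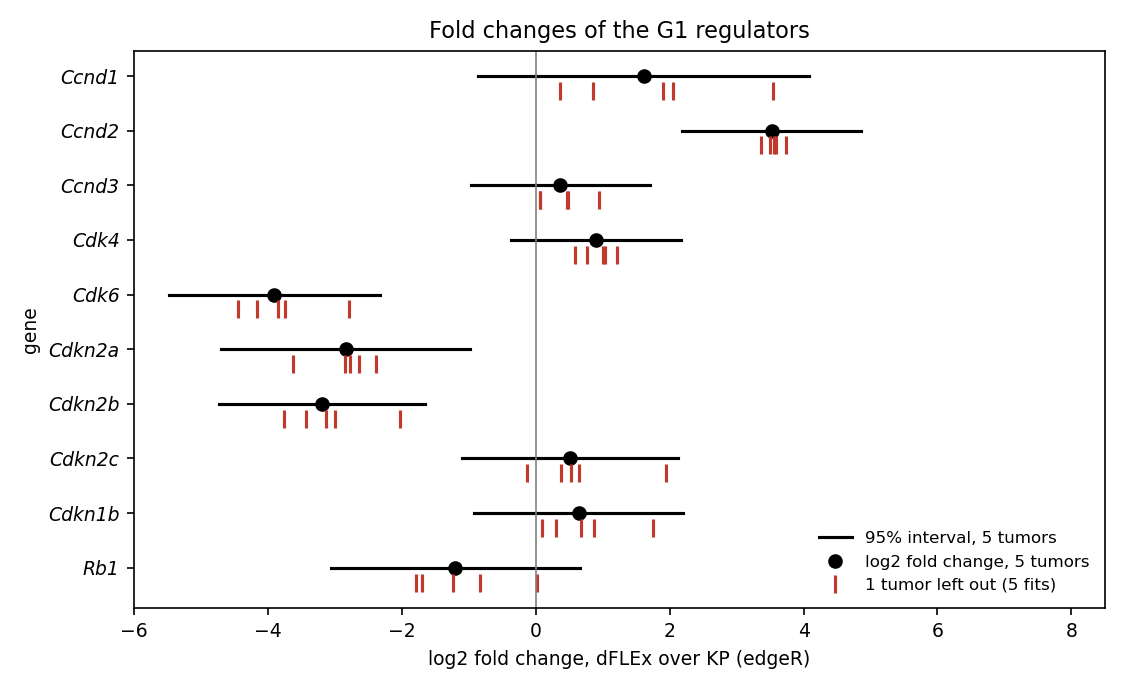
Log2 fold change of each gene, dFLEx over KP, from edgeR on tumor sums (black points) with its 95% interval (black lines), and the values obtained with 1 tumor left out (red ticks, 5 for each gene). The intervals of Ccnd2, Cdk6, Cdkn2a and Cdkn2b do not reach 0, whereas the ticks of Ccnd1 spread from 0.36 to 3.55.

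Set beside each other per kilobase, the 10 genes ranked differently in the 2 tumor types. In dFLEx the highest means were those of Ccnd2 (270 ± 49.1 CPM per kilobase, SD, n = 3), Ccnd1 (185 ± 188), Cdkn2a (169 ± 132) and Cdk4 (161 ± 48.9), and no 2 neighbours in this order differed beyond their spread. Cdkn1b (19.6 ± 7.44), Cdkn2c (19.6 ± 3.88), Ccnd3 (16.4 ± 5.42) and Cdkn2b (15.1 ± 4.27) followed close together, with Rb1 (0.873 ± 0.534) and Cdk6 (0.549 ± 0.169) at the foot.

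In KP the order was Cdkn2a (1214 ± 201 CPM per kilobase, SD, n = 2), Cdkn2b (138 ± 97.9), Cdk4 (86.7 ± 13.2) and Ccnd1 (60.3 ± 60.0), the last 3 within their spread of each other. Ccnd2 came next (23.4 ± 1.02), then Cdkn2c, Ccnd3 and Cdkn1b between 12.6 and 13.7, Cdk6 (8.23 ± 5.58) and Rb1 (2.01 ± 1.46). Cdkn2a ranked first in both KP tumors and in 170019.

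Within dFLEx, tumor 170025 had the highest and 170019 the lowest level of Ccnd1, Ccnd2, Ccnd3, Cdk6, Cdkn2c and Rb1, with the opposite for Cdk4, Cdkn2a and Cdkn2b. CIC_DUX4 was lowest in 170019 and highest in 170025 too, at 89.3, 192 and 409 CPM on library totals, and the total counts of the tumors had the same order. The trend of each tumor with GC content and transcript length also set 170019 and 170025 apart. At Cdkn2a it came to 0.89, 0.42 and -0.73 log2 units in 170019, 170024 and 170025, and to -1.06 and 0.48 in 3800 and 3802, while at Ccnd1 it stayed between -0.11 and 0.08. The trend had the order of the dFLEx levels at Ccnd2 (-0.43, -0.12 and 0.39) and Cdk6 (-0.74, -0.30 and 0.48) too. The same held at Cdk4 (0.48, 0.22 and -0.39), Cdkn2b, Cdkn2c and Rb1, but not at Ccnd1 or Ccnd3. Whether CIC_DUX4, the total counts or this trend goes with the order of the 3 tumors was not tested. The span was 7.65-fold for Cdkn2a, close to that of Ccnd1 and in the opposite order.

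Other cell types in the bulk samples also differed, and in bulk RNA fewer cells of a type cannot be told apart from less RNA per cell. Macrophage markers (6 of 6 detected in every tumor) summed to 551 to 751 CPM in dFLEx and to 1220 and 4015 CPM in 3800 and 3802, on the same side as Cdk6, Cdkn2a and Cdkn2b. Within KP, 3802 had the larger macrophage sum, the larger Cdkn2a level and the smaller Cdk6 and Cdkn2b levels. Myocyte markers (6 of 6) summed to 5930 to 23652 CPM in dFLEx and 1236 to 3027 CPM in KP, pericyte markers (5 of 5) to 546 to 978 and 60.7 to 371 CPM, and endothelial markers (6 of 6) to 196 to 510 and 79.9 to 131 CPM, all on the side of Ccnd2. The 5 tumor cell markers taken from the study summed to 5523 to 6602 CPM in dFLEx and 272 to 289 CPM in KP. T cell, B cell and fibroblast sums overlapped, and no marker of any list was at 0 in a tumor. Single markers were less even than the sums. Below KP in each dFLEx tumor were 4 of 6 macrophage and 3 of 5 T cell markers, against 11.7% of all tested features. Above KP were 5 of 6 myocyte, 2 of 5 pericyte, 2 of 6 endothelial and 3 of 5 fibroblast markers, against 13.7%. The other markers of these 6 lists overlapped. The part of the marker lists in the results was not tested.

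The other genes of the pathway, 50 in number, were read from the same fit, to show whether the levels around the D cyclin kinases differed too. None of the 50 passed an adjusted p of 0.05 in edgeR, against 0.182% of all tested features. At an unadjusted p under 0.05, 7 of the 50 passed (5 higher and 2 lower), against 10.6% of all features. In 7 genes each dFLEx tumor was above both KP tumors, in 2 it was below, and 41 overlapped, where the shares of all tested features were 13.7%, 11.7% and 74.6%. Their median log2 fold change was 0.15, against -0.18 over all tested features.

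Among the inhibitors outside the 10 genes, Cdkn1c (p57, of the same family as p27) had the largest log2 fold change of the list. It had 1404, 893 and 678 CPM in the dFLEx tumors and 90.3 and 291 CPM in 3800 and 3802, without overlap (log2 fold change 2.38, SE 0.73, adjusted p = 0.264). Cdkn2d, the fourth Ink4 gene (p19), had 104, 67.9 and 54.2 CPM in dFLEx and 29.8 and 23.7 CPM in KP, also without overlap (1.49, SE 0.60, adjusted p = 0.424). Cdkn2d and Cdkn1c were thus above both KP tumors where Cdkn2a and Cdkn2b were below. Cdkn1a, the p21 gene, overlapped, with log2 fold change 0.02 (SE 0.52), as did Cdkn3 at -0.30.

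Of the 12 pocket protein, E2F and DP genes, 10 overlapped, against 74.6% of all tested features, and the median log2 fold change was -0.36. E2f2, an activating E2F, had 11.3, 14.5 and 15.2 CPM in dFLEx and 36.3 and 36.9 CPM in KP (-1.42, SE 0.54, adjusted p = 0.402), and E2f5, which binds pocket proteins as a repressor, had 4.40 to 5.15 CPM against 18.8 and 7.52 CPM (-1.47, SE 0.63, adjusted p = 0.467). Those were the 2 genes below KP throughout. At the other end were E2f3 (1.27) and E2f6 (0.62), both overlapping. E2f1 overlapped at 0.03 (SE 0.59), and the pocket protein genes Rbl1 (p107) and Rbl2 (p130) gave -0.85 (SE 0.79) and 0.35 (SE 1.08).

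In the cyclin E/A and Cdk2 group, 3 of 6 genes were above KP in each dFLEx tumor, against 13.7% of all tested features. Cdc25a, a phosphatase that activates Cdk2, had 60.5, 72.0 and 103 CPM against 25.4 and 21.1 CPM (1.76, SE 0.59, adjusted p = 0.317). Cdk2 had 62.9, 54.1 and 79.6 CPM against 37.4 and 30.3 CPM (0.95, SE 0.56, adjusted p = 0.684). Ccna1 was above as well but at 1.39 CPM or less in every tumor (1.64). Ccne1, the cyclin E1 gene that the study includes in its activity score, overlapped at 0.21 (SE 0.58), and Ccna2 was the lowest of the group at -0.91.

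Of the E2F target genes of DNA replication, 14 of 16 overlapped, against 74.6% of all tested features, and the median log2 fold change was 0.26. The 2 that did not overlap were Tk1, thymidine kinase (704, 306 and 203 CPM against 109 and 120 CPM, log2 fold change 1.82), and Rrm1, the large subunit of ribonucleotide reductase (245, 194 and 362 CPM against 104 and 96.5 CPM, 1.41). The lowest were Pole (-0.65) and Rrm2 (-0.22). All 3 genes of the Cdk-activating kinase overlapped, from Ccnh (-0.18) to Cdk7 (0.13) and Mnat1 (0.41), as did all 9 of cyclin and p27 turnover, from Fbxo4 (-0.62) and Fbxw7 (-0.25) to Fbxo31 (0.32) and Cks1b (0.44).

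**Figure D4:**
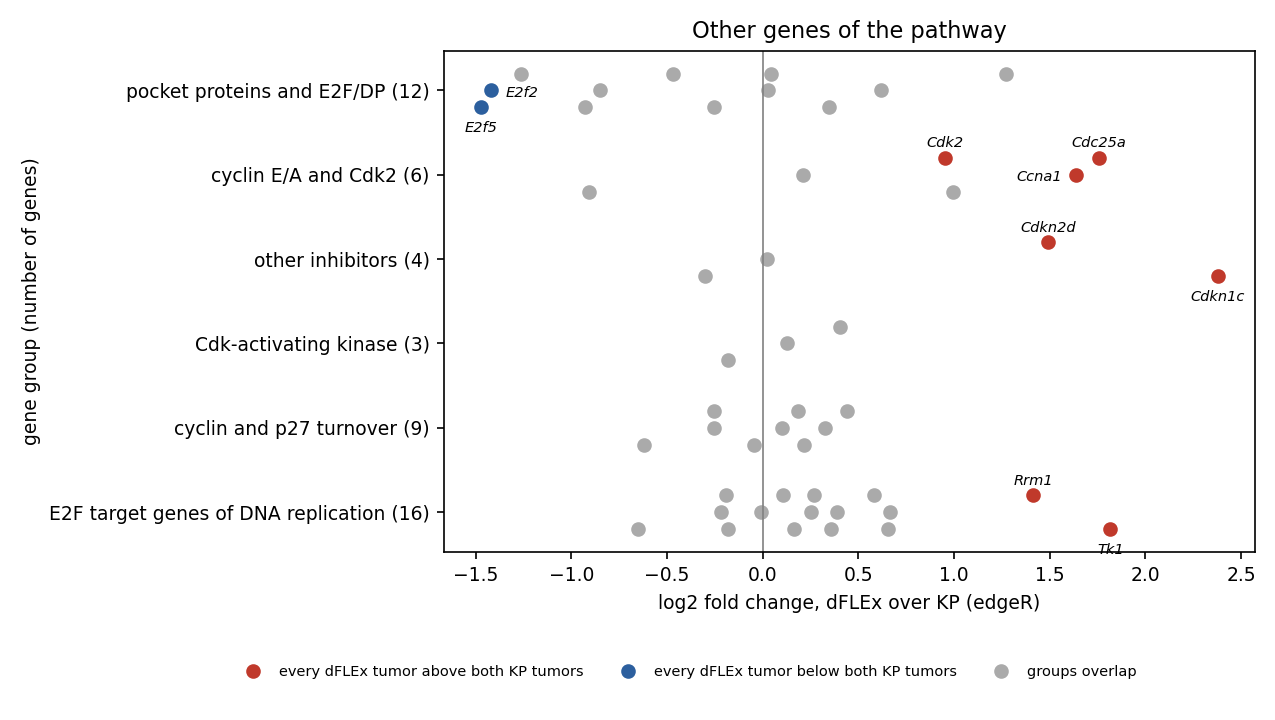
Log2 fold change, dFLEx over KP, of 50 other genes of the pathway in 6 groups (vertical position within a group only separates the points). Red points are the 7 genes above both KP tumors in each dFLEx tumor, blue points the 2 below, and grey points the 41 that overlap.

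To see which genes tracked each D cyclin, the 15264 tested genes that averaged 1 CPM or more were ranked by the Euclidean distance of their centred log2(CPM + 0.5) profile over the 5 tumors. Nearest to Ccnd2 were Cdk5r2 (distance 0.20), Impa2 (0.24) and Sbsn (0.40). Impa2, inositol monophosphatase 2, had 122, 142 and 214 CPM in dFLEx and 13.7 and 13.4 CPM in KP. Cdk5r2, an activator of Cdk5, had 5.47, 6.45 and 7.15 CPM in dFLEx and 0.0537 and 0.0813 CPM in KP and passed the test (adjusted p = 0.0486). Its KP values were a few counts per tumor, so its distance to Ccnd2 depends on the offset of 0.5. In all 3 the groups did not overlap, which the ranking by likeness favours.

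Nearest to Ccnd1 were Pip4k2b (0.25), Cpt1a (0.28) and Mest (0.39). Pip4k2b, a phosphatidylinositol phosphate kinase, had 49.6, 100 and 388 CPM in dFLEx and 81.3 and 15.8 CPM in KP, and so shared the high value of 170025 and the low one of 3802. Nearest to Ccnd3 were Hgsnat (0.14), Thsd1 (0.16) and Rab6a (0.16), all with an adjusted p between 0.899 and 0.936. With 5 tumors these distances describe likeness only.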

How the data were processed

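RNA-seq was analysed from 9 of 10 labelled libraries of 5 tumors. The authors trimmed reads with Trimmomatic 0.39, aligned them with STAR 2.7.10a to mm39 (GRCm39) extended by the fusion construct, and deposited whole-number counts per gene from featureCounts (Subread 2.0.3), not normalized. Per the file headers, strand was ignored, each mate counted as a read, and reads with several alignments or over several genes left out. Symbols came from GENCODE M39 (98.7% of 56750 features), promoter letters from RefSeq (GRCm38.p6, 7 of 10 genes).

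Duplicates were summed per tumor, since duplicates share 1 RNA. Counts were filtered with filterByExpr, scaled by TMM and tested with edgeR 4.0.16 (glmQLFit, glmQLFTest; R 4.3.3), Benjamini-Hochberg adjusted over all tested genes, threshold 0.05. The script was tested on simulated data. Standard errors were derived from the log2 fold change and the F statistic. TMM set the median log2 fold change 0.30 above library totals, 0.21 above upper quartile and 0.09 above DESeq2 size factors. Shares and sums used counts per exonic kilobase with exact two-sided permutation tests (tumors as units, SciPy 1.17.1). P-values over tumors measure only the spread between these 5 tumors.

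Alternatives were DESeq2 1.42.0, limma-voom (limma 3.58.1), libraries as samples, a block for the duplicate number, other scalings and filters, 1 library per tumor, each tumor left out, and, chosen after the data were seen, a correction of each tumor for GC content and transcript length (loess). The 10 genes, the pathway and marker lists and the motifs were chosen with earlier results of these data known. Text names all 10 genes, from the pathway list the 2 highest and 2 lowest log2 fold changes of each group plus Ccne1, Cdk2, Cdkn1a, E2f1, Rbl1 and Rbl2, and the 3 genes nearest to each D cyclin. Genes of the pathway list whose groups did not overlap were named after their values were seen.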

Additional observations from a re-analysis of the deposited data

How the results depend on the processing

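Ccnd2, Cdk6, Cdkn2a and Cdkn2b kept their direction under all 17 alternatives, and their side of the threshold depended on the test. Against 45 features and 0 of the 10 genes called, the calls were 50 and 1 (Cdk6) with upper quartile scaling, 80 and 1 (Cdk6) with a mean of at least 1 CPM, 880 and 4 with no filter on low counts, 1396 and 4 with DESeq2 on tumor sums, 543 and 4 with limma-voom, 349 and 4 with the correction for GC content and length, 3344 and 4 with edgeR on libraries as independent samples, and 4828 and 5 with DESeq2 on them, where Rb1 was the fifth. With libraries as samples the p-values are too small, as duplicates share 1 RNA. The duplicate number only names a library (correlation of same-numbered deviations from -0.75 to 0.75), and the fit with it as a replicate block called 2476 features and 4 of the genes. Leaving out 1 tumor gave 0 to 414 features and 0 to 2 of the genes. The 0 came without 170019 and without 170024, where 1939 and 1414 features had an unadjusted p under 0.05 in edgeR, and the 2 were Cdk6 and Cdkn2b without 3802. Directions turned for Cdkn2c (-0.13 to 1.95 with 1 tumor left out), for Rb1 (-1.78 to 0.018), for the Cdkn2b share (-6.61 to 4.51 points, with 0.756 without 170019) and, with the correction for GC content and length, for Ccnd3 (-0.0054). The cause was not tested. The summed D cyclin level and the shares of Ccnd1, Ccnd2, Ccnd3, Cdk4, Cdkn2a and Cdkn2c kept their direction in the alternatives run for them (those for Ccnd1 and Ccnd3 were chosen after the data were seen), and without the length correction the Cdk4, Cdkn2a and Cdkn2c share differences were 25.7, -21.4 and 24.5 points. In all, 2 KP tumors, 1 of them with 1 library, limit every comparison.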
